A study of Mus musculus with 6 samples.

Results

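The circadian clock genes described here are 10 of the 55414 gene identifiers counted in C2C12 cells, a mouse myoblast line. They were chosen by name, with earlier results of these data known. The activators are Arntl, which encodes BMAL1, and Clock. The repressors are Per1, Per2, Per3, Cry1 and Cry2. Hlf, Tef and Dbp are the PAR bZIP output factors. Cells were transfected by lipofectamine with an siRNA against Usf2 (siUsf2 1 to 3) or with a control siRNA (siControl 1 to 3), so both groups are wild-type cells of 1 line that went through transfection. The series set out to find which genes respond when USF2 is knocked down. The labels give neither a harvest time nor a step that synchronises the cells, so the clock phase of each library is not known. Nothing in the labels says whether libraries of a group came from separate cultures, and p-values measure the spread between these libraries, which may be technical.

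In the mammalian clock, CLOCK and BMAL1 form a basic helix-loop-helix dimer that binds E-boxes and switches on the Per and Cry genes, whose proteins then return to the nucleus and block the dimer. The PAR bZIP factors are outputs of this loop and bind a different sequence, the D-box, in genes of metabolism and in clock genes themselves. USF2 is also a basic helix-loop-helix factor, with a leucine zipper, and it recognises the same CACGTG core of the E-box. Skeletal muscle has a robust clock of its own, and C2C12 cells can show rhythms after a serum or hormone pulse.

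Of the 10 genes, Hlf and Per3 rose and the other 8 did not pass the test when siUsf2 1 and 2 were compared with siControl 1 to 3. Hlf averaged 33.7 ± 6.72 CPM (counts scaled to a common library total; SD, n = 2) in siUsf2 1 and 2, against 14.6 ± 3.01 CPM (SD, n = 3) in siControl. Per3 averaged 53.1 ± 3.73 CPM in siUsf2 1 and 2 (SD, n = 2) and 39.2 ± 0.974 CPM in siControl (SD, n = 3). The median log2 fold change of the 10 genes was 0.12, against -0.01 over all 17217 genes tested. In that comparison 4.97% of all genes tested rose and 6.4% fell, at an adjusted p below 0.05 by edgeR's quasi-likelihood test with Benjamini-Hochberg adjustment. At an unadjusted p below 0.05, where 24.9% of all genes lay, 4 of the 10 were higher (Hlf, Per3, Arntl and Per1) and 0 were lower. DESeq2 and limma-voom also called 2 higher and 0 lower.

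The library labelled siUsf2 3 stood apart and is shown separately throughout. Usf2 was at 17.1 and 15.3 CPM in siUsf2 1 and 2 and at 30.8 CPM in the library labelled siUsf2 3, against 26.2, 31.2 and 23.0 CPM in siControl 1 to 3. The knockdown is therefore visible in siUsf2 1 and 2 (log2 fold change -0.74, adjusted p = 6.43e-04 by edgeR, SE 0.14), while the library labelled siUsf2 3 goes against its label. It also held 3414565 counts, against 14790997 to 17715250 in the other 5, and pseudogenes took 0.974% of its counts, against 14.04% to 15.3%. Its log2(CPM + 1) values had r = 0.914 to 0.917 with those of the others, whereas the other pairs ranged from 0.994 to 0.997. These correlations run across genes, which are no replicates. Usf1, the paralog of Usf2, was at 24.8 and 28.4 CPM in siUsf2 1 and 2 and at 68.8 CPM in the library labelled siUsf2 3. In siControl 1 to 3 it was at 35.6, 32.8 and 26.0 CPM (5-library log2 fold change -0.25, adjusted p = 0.234 by edgeR, SE 0.13). With all 6 libraries, edgeR called none of the 10 clock genes, where 0% of the 16662 genes tested rose and 0.042% fell. At an unadjusted p below 0.05 there were 2, a threshold passed by 10.5% of all genes. DESeq2 called 1 and limma-voom 0. In simulated data the 6-library edgeR test recovered 4.48% of 2-fold changes, against 100% with 5 libraries. A missing call with 6 libraries therefore says little about changes of this size or smaller.

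**Figure D1:**
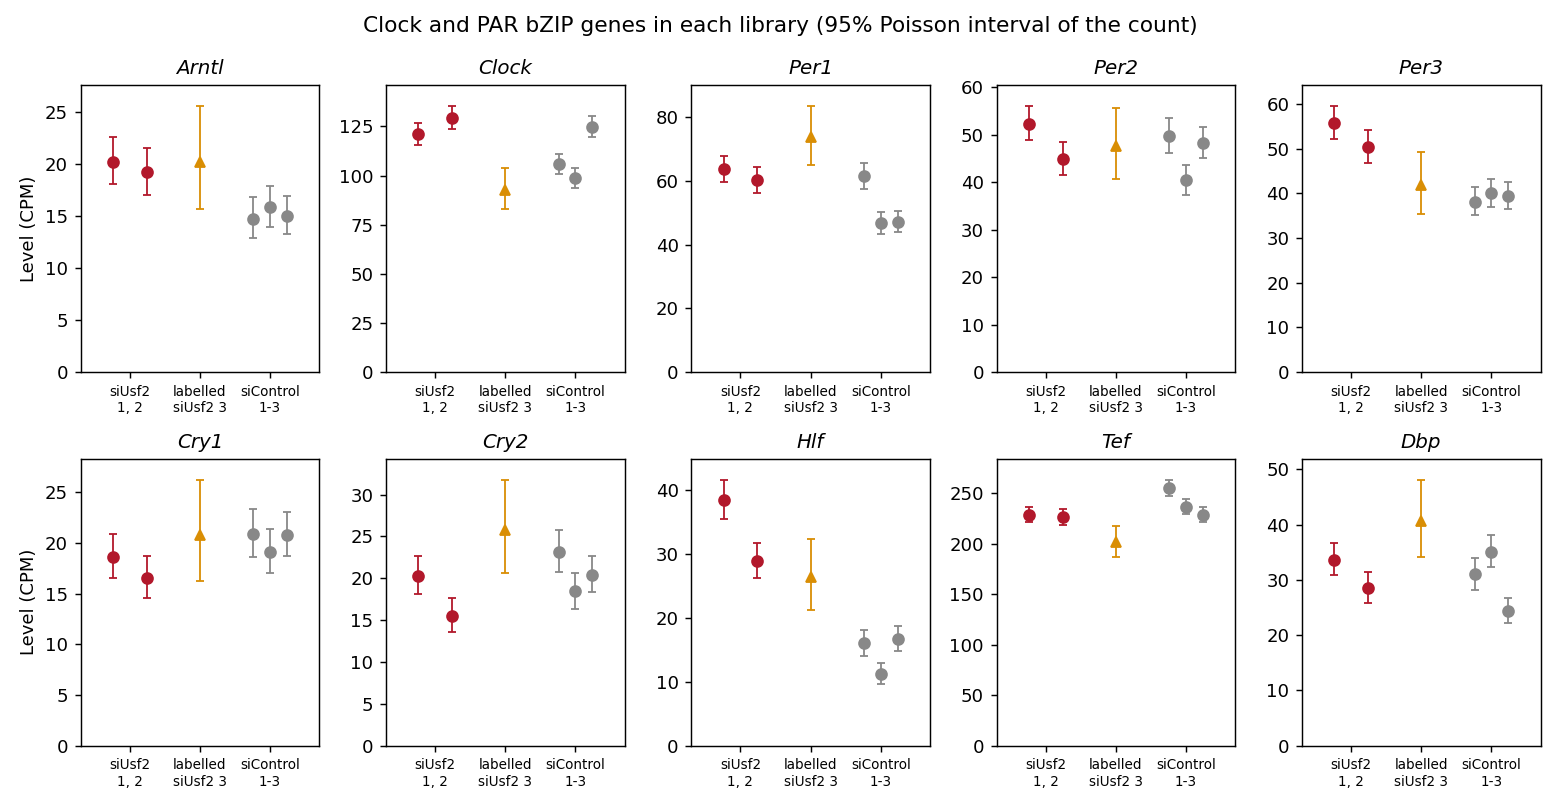
Level of each of the 10 genes in each library (y axis, CPM; bars are exact Poisson 95% intervals of the count, which cover counting error only). Red circles are siUsf2 1 and 2, the orange triangle is the library labelled siUsf2 3 and grey circles are siControl 1 to 3; Hlf at 38.4 and 28.9 CPM in siUsf2 1 and 2, and at 26.4 CPM in the library labelled siUsf2 3, lies clear of 11.2 to 16.7 CPM in siControl.

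Stretches ahead of annotated starts are shown for Hlf and Per3, the members that rose, and for Per1 and Tef, which carry an E-box and did not pass. They are the 250 bases before a RefSeq start (GRCm38.p6), read 5′ to 3′ on the gene's strand. Capitals mark an E-box (CACGTG), a D-box (TTATGTAA) or a cAMP response element (TGACGTCA, the site of CREB factors).
Hlf, chr11:90390918-90391167, minus strand: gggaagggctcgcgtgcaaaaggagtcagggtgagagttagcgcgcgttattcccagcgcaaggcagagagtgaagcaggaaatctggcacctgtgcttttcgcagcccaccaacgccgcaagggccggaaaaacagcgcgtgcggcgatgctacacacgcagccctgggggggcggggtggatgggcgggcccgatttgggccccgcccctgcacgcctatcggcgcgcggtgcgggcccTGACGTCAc
Per3, chr4:151044666-151044915, minus strand: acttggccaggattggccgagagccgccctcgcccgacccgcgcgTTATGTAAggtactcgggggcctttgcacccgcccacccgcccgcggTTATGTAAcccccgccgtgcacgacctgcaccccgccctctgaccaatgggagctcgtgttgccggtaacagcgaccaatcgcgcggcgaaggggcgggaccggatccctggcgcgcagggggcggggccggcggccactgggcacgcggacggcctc
Per1, chr11:69098699-69098948, plus strand: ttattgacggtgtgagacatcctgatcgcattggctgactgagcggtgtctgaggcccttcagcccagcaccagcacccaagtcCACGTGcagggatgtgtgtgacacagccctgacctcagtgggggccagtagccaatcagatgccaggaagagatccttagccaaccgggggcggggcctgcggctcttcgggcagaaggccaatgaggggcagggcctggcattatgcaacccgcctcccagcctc
Tef, chr15:81811164-81811413, plus strand: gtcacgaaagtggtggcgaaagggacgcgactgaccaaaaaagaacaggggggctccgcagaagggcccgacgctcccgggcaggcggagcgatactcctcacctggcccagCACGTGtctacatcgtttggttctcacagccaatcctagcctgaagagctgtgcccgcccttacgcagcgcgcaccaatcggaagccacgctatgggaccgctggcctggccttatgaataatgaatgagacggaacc

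The Hlf stretch holds the cAMP response element with its first base 9 bases before the start, and no E-box. Per3 holds 2 copies of the D-box, beginning 205 and 158 bases before its start, and no E-box. Per1 holds an E-box 166 bases before the start shown, while the stretch before its other start holds none. Tef holds an E-box 138 bases before the start shown and another 127 bases before its other start. Cry1 holds one 60 bases before its start, and none of these 3 genes passed the test. Arntl, Clock, Cry2 and Dbp, whose stretches hold none of these motifs, did not pass either. Whether an E-box goes with a call was not tested. RefSeq entries were matched for 9 of the 10 genes (all but Per2), with 14 starts in all, and 3 of the 9 had an E-box before any of their starts. A gene with several starts has more chances of a match. This count of genes is therefore not comparable with the shares of single stretches that follow. Among all 32851 stretches of this length, 6.02% held CACGTG, 0.819% held TTATGTAA on either strand, 0.113% held the second D-box spelling TTACGTAA and 1.55% held TGACGTCA, and none of these motifs overlapped another in the 4 stretches shown. A match is a sequence in this window and no measure of binding, and sites outside the window were not searched.

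Hlf (hepatic leukaemia factor) is the PAR bZIP member that moved. Its gene spans 90336536 to 90390895 of chromosome 11 (minus strand of GRCm38, 8 merged exons). Its level was 38.4 and 28.9 CPM in siUsf2 1 and 2 and 26.4 CPM in the library labelled siUsf2 3, against 16.0, 11.2 and 16.7 CPM in siControl 1 to 3. All 3 libraries labelled siUsf2 were above every siControl library, and the 95% Poisson interval of the library labelled siUsf2 3, 21.2 to 32.4 CPM from 90 reads, also lay above the highest siControl interval, which ended at 18.7 CPM. With 5 libraries the log2 fold change was 1.19 (adjusted p = 1.28e-05 by edgeR, SE 0.16), a mean level 2.3-fold that of siControl. It was rank 32 by p among the 8407 genes with a positive fold change. With all 6 libraries the log2 fold change was 1.07 (adjusted p = 0.201 by edgeR, SE 0.24), which did not pass.

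Tef (thyrotroph embryonic factor) was the most abundant of the 10 genes and did not pass. It was at 228 and 226 CPM in siUsf2 1 and 2 and 202 CPM in the library labelled siUsf2 3, against 255, 236 and 229 CPM in siControl 1 to 3. Every library labelled siUsf2 was below every siControl library, but siUsf2 1 and siControl 3 were nearly equal. Tef exons overlap 193 bases of the antisense gene Gm17597. Its log2 fold change in the 5 libraries was -0.09, with a 95% interval of -0.26 to 0.08 (edgeR adjusted p = 0.559).

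Dbp, a D-box binding factor whose gene is driven strongly by CLOCK and BMAL1 in mouse liver, did not separate the groups. It was at 33.6 and 28.5 CPM in siUsf2 1 and 2 and 40.7 CPM in the library labelled siUsf2 3, against 31.0, 35.1 and 24.4 CPM in siControl 1 to 3. The groups overlapped, and the 5-library log2 fold change was 0.03 (95% interval -0.24 to 0.31, edgeR adjusted p = 0.912). A stretch of 539 bases of Dbp exons overlaps Sphk2 on the opposite strand, and the strand setting of the counting is not given in the sources used here, so reads of the 2 genes cannot be told apart there.

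The share of Hlf in the PAR bZIP total was higher in each library labelled siUsf2 than in any siControl library, a description with no test. Per length, Hlf made up 12.5% and 10.2% of the summed PAR bZIP level (CPM per kilobase of exon) in siUsf2 1 and 2, with 9.13% in the library labelled siUsf2 3, against 5.31%, 3.85% and 6.3% in siControl 1 to 3. Tef made up 63.1% and 67.5% in siUsf2 1 and 2, with 59.4% in the library labelled siUsf2 3, against 71.7%, 69.1% and 73.2% in siControl 1 to 3. The shares of the 3 genes add up to the whole, so a lower Tef share is not a result separate from the higher Hlf share. The Dbp share was 24.4% and 22.4% in siUsf2 1 and 2, within the 20.5% to 27.0% of siControl, and 31.5% in the library labelled siUsf2 3.

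Reads of Hlf were also set against those of each other PAR bZIP gene within a library. Per 100 reads of Tef there were 16.8 and 12.8 reads of Hlf in siUsf2 1 and 2, with 13.1 in the library labelled siUsf2 3, against 6.29, 4.73 and 7.31 in siControl 1 to 3. Per 100 reads of Dbp there were 114 and 101 reads of Hlf in siUsf2 1 and 2, with 64.8 in the library labelled siUsf2 3, against 51.6, 31.9 and 68.5 in siControl 1 to 3. With Tef as the denominator, every library labelled siUsf2 was above siControl; with Dbp, siUsf2 1 and 2 were above it and the library labelled siUsf2 3 lay inside its range.

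**Figure D2:**
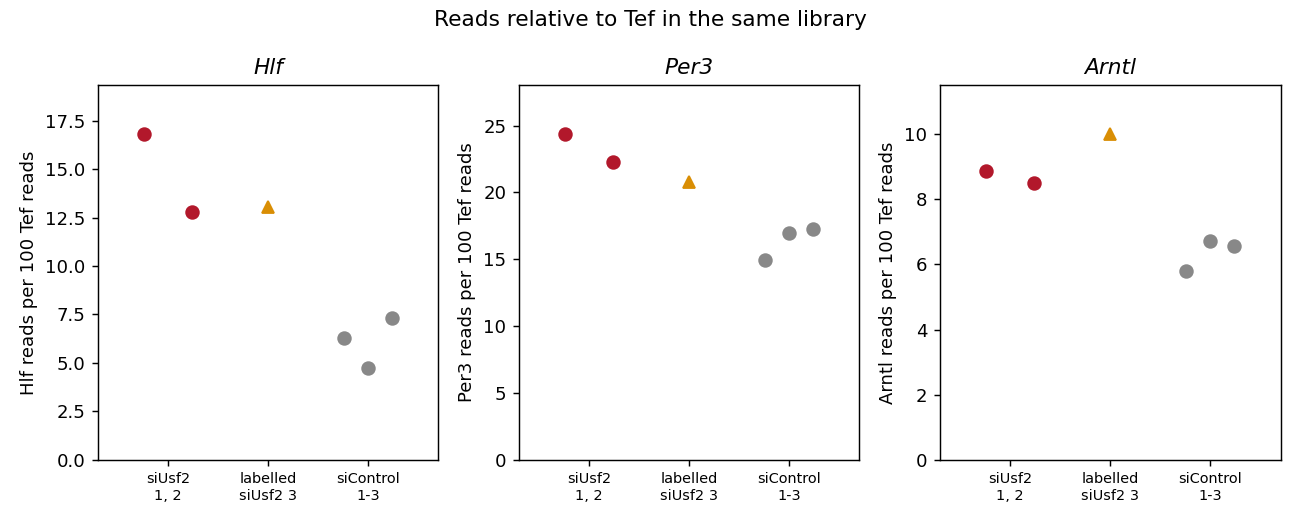
Reads of Hlf, Per3 and Arntl per 100 reads of Tef in the same library (y axes, starting at 0), a ratio that no scaling between libraries can change. Tef was chosen after its values were seen. Its own CPM was lower in every library labelled siUsf2 than in siControl, though barely in siUsf2 1, which raises these ratios. Each panel has siUsf2 1 and 2 in red, the library labelled siUsf2 3 in orange and siControl 1 to 3 in grey; Hlf was at 12.8 to 16.8 in siUsf2 1 and 2 and at 13.1 in the library labelled siUsf2 3, against 4.73 to 7.31 in siControl.

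Among the repressors, Per3, the Per gene that is dispensable for the core oscillation in mice, was the member that rose. It was at 55.7 and 50.4 CPM in siUsf2 1 and 2 and 41.9 CPM in the library labelled siUsf2 3, against 38.1, 40.0 and 39.4 CPM in siControl 1 to 3. In siUsf2 1 and 2 it was clear of siControl, whereas the library labelled siUsf2 3 was only just above it and its Poisson interval, 35.3 to 49.3 CPM, covered all 3 siControl levels. The 5-library log2 fold change was 0.42 (adjusted p = 0.00576 by edgeR, SE 0.10). The call ended without siUsf2 1 (log2 fold change 0.36, adjusted p = 0.154), and with all 6 libraries the log2 fold change was 0.30 (adjusted p = 0.532 by edgeR, SE 0.14).

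Per1, which is rapidly induced by cAMP and glucocorticoids, was not called. It was at 63.7 and 60.2 CPM in siUsf2 1 and 2 and 73.8 CPM in the library labelled siUsf2 3, against 61.5, 46.7 and 47.2 CPM in siControl 1 to 3. The group ranges overlapped because siControl 1 reached the siUsf2 levels. With 5 libraries the log2 fold change was 0.25 (95% interval 0.02 to 0.48, edgeR adjusted p = 0.158), and without siControl 1 it was 0.39 with an adjusted p of 0.0416, past the threshold.

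Per2, which is needed for a stable rhythm in mice, showed the smallest difference among the repressors. It was at 52.3 and 44.9 CPM in siUsf2 1 and 2 and 47.7 CPM in the library labelled siUsf2 3, against 49.8, 40.4 and 48.3 CPM in siControl 1 to 3. Its log2 fold change in the 5 libraries was 0.06 (95% interval -0.16 to 0.29, edgeR adjusted p = 0.786), and its sign turned without siControl 2 (-0.03) and without siUsf2 1 (-0.04).

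The cryptochromes Cry1 and Cry2, the principal repressors of the CLOCK and BMAL1 dimer, both had negative 5-library fold changes that did not pass. Cry1 was at 18.7 and 16.5 CPM in siUsf2 1 and 2 and 20.8 CPM in the library labelled siUsf2 3, against 20.9, 19.1 and 20.8 CPM in siControl 1 to 3. Cry2 was at 20.3 and 15.5 CPM in siUsf2 1 and 2 and 25.8 CPM in the library labelled siUsf2 3, against 23.2, 18.4 and 20.4 CPM in siControl 1 to 3. For Cry1 siUsf2 1 and 2 lay just below siControl and the library labelled siUsf2 3 lay inside its range, while for Cry2 the groups overlapped. The 5-library log2 fold changes were -0.22 for Cry1 (95% interval -0.50 to 0.07, edgeR adjusted p = 0.348) and -0.22 for Cry2 (95% interval -0.52 to 0.08, edgeR adjusted p = 0.38). These intervals are wide enough to hold a fall of about the size of the Per3 rise. Cry2 exons overlap 295 bases of D930015M05Rik on the opposite strand.

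Of the activators, Arntl was higher in all 3 libraries labelled siUsf2 than in every siControl library but missed the threshold. It was at 20.2 and 19.2 CPM in siUsf2 1 and 2 and 20.2 CPM in the library labelled siUsf2 3, against 14.7, 15.9 and 15.02 CPM in siControl 1 to 3. The library labelled siUsf2 3 rested on 69 reads of Arntl, with a Poisson interval of 15.7 to 25.6 CPM. The log2 fold change was 0.36 with the 5 libraries (95% interval 0.07 to 0.65, edgeR adjusted p = 0.0974) and 0.35 with all 6 (adjusted p = 0.335 by edgeR, SE 0.11). Under the 12 other settings of the 5-library comparison its adjusted p ranged from 0.0584 to 0.403. Arntl exons overlap 33 bases of the antisense gene Gm45355.

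Clock, which encodes the partner of BMAL1, was variable within siControl. It was at 121 and 129 CPM in siUsf2 1 and 2 and 92.8 CPM in the library labelled siUsf2 3, against 106, 98.7 and 125 CPM in siControl 1 to 3. The library labelled siUsf2 3 was below every siControl library. The mean of siUsf2 1 and 2 was above that of siControl (125 against 110 CPM), but siControl 3 lay between siUsf2 1 and siUsf2 2. The 5-library log2 fold change was 0.18 (95% interval -0.03 to 0.38, edgeR adjusted p = 0.272), and it passed without siControl 3 (0.29, adjusted p = 0.00931).

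Across the 10 genes, every library labelled siUsf2 was above every siControl library for 3 (Arntl, Per3 and Hlf) and below for 1 (Tef), with 6 overlapping. Over all genes tested with 6 libraries, 11.4% were above and 11.2% below in this sense. The library labelled siUsf2 3 was by itself above every siControl library for 6 of the 10 (Arntl, Per1, Per3, Cry2, Hlf and Dbp), as it was for 39.6% of all genes. With siUsf2 1 and 2 alone the same 3 genes were above and 2 (Cry1 and Tef) below, where 21.8% of genes were above and 19.5% below. All of these orders are in CPM, which leaves out edgeR's TMM scaling factors. With 6 libraries these factors were 1.04 for the library labelled siUsf2 3 and 0.982 to 0.994 for siControl. That gap is about as large as the margin of Per3 in that library, 41.9 CPM against 40.0 CPM in siControl 2. Its place above siControl therefore depends on the scaling.

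**Figure D3:**
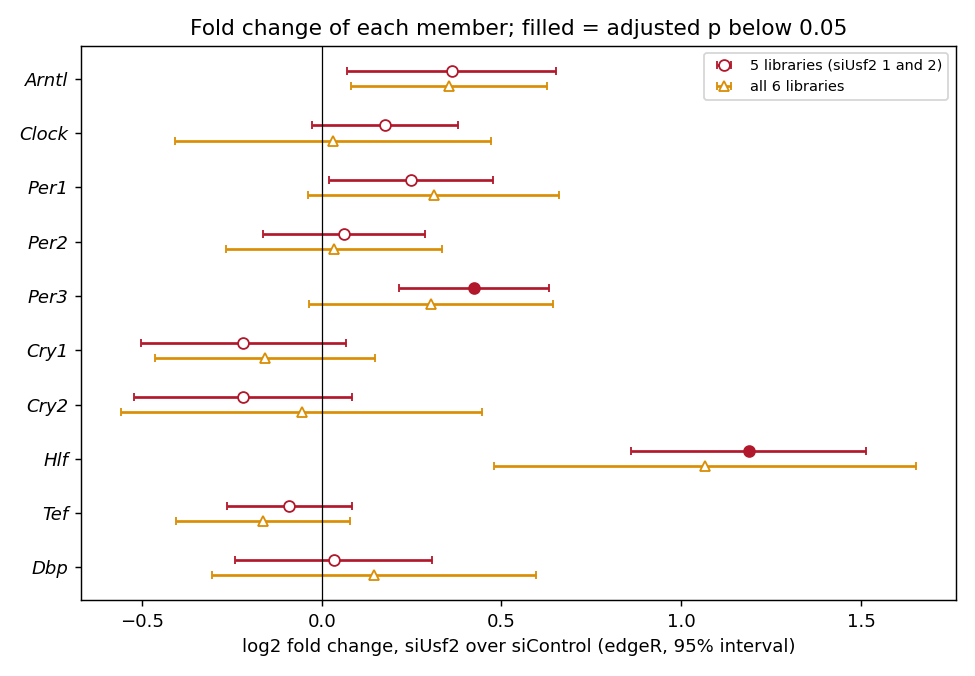
Log2 fold change of siUsf2 over siControl for each gene (x axis) with its 95% interval from edgeR, for the 5 libraries without the one labelled siUsf2 3 (red circles) and for all 6 (orange triangles). Filled symbols have an adjusted p below 0.05: Hlf at 1.19 and Per3 at 0.42 in the 5 libraries, and none in the 6.

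Per length, the order of the clock genes in siControl ran from Tef at 30.5 ± 1.71 CPM per kilobase of exon (SD, n = 3) to Arntl at 2.02 ± 0.0783 CPM per kilobase. Dbp (10.1), Per1 (9.19), Clock (7.998) and Per2 (7.88) came next, and neighbours among these 4 overlapped between libraries. Cry1 (6.07), Per3 (4.08) and Cry2 (3.27) followed in steps without overlap, and Hlf (2.19 ± 0.451) and Arntl overlapped at the low end. In siUsf2 1 and 2, Hlf reached 5.04 ± 1.01 CPM per kilobase (SD, n = 2) and rank 8 of 10, against rank 9 in siControl, close to Cry1 at 5.27 and Per3 at 5.52. These levels use all annotated exons of a gene, so a gene read mainly from short isoforms is understated.

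Other parts of the clock were read from lists drawn up from known biology, with earlier results of these data known. They stand beside the 11.4% of all genes tested that were called in either direction in the 5 libraries. Of 11 other transcription factors of the loop, 9 were tested in the 5 libraries, 1 rose, 0 fell and 8 did not pass. DESeq2 and limma-voom each called 1 higher and 0 lower. At an unadjusted p below 0.05 by edgeR, where 24.9% of all genes lay, there were 2, of which 1 was higher and 1 lower. The median fold change of the 9 was 0.09 (log2). The gene that rose was Arntl2, the paralog of Arntl. Arntl2 was at 9.67 and 7.43 CPM in siUsf2 1 and 2 and 9.08 CPM in the library labelled siUsf2 3, against 4.94, 4.75 and 4.86 CPM in siControl 1 to 3. All 3 libraries labelled siUsf2 were above siControl, as they were for 11.4% of all genes tested with 6 libraries. The value in the library labelled siUsf2 3 rested on 31 reads. The log2 fold change of Arntl2 was 0.81 (adjusted p = 0.0135 by edgeR, SE 0.22) in the 5 libraries. Its call ended without siControl 1 (adjusted p = 0.0518), siControl 2 (0.0502) or siUsf2 1 (0.274). Nr1d1 and Nr1d2, the REV-ERB receptors that repress Arntl, had log2 fold changes of -0.03 and -0.01 and did not pass. Npas2, the Clock paralog, and Rorb held too few counts to be tested.

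Of 13 kinases, ubiquitin ligases and deubiquitinases that act on clock proteins, 12 were tested and edgeR called none, beside 11.4% of all genes. DESeq2 and limma-voom called 0, and the median fold change of the 12 was 0.00 (log2). At an unadjusted p below 0.05 by edgeR there was 1, where 24.9% of all genes lay. That gene was Usp2, a deubiquitinase and itself a rhythmic gene. Usp2 was at 12.6 and 14.5 CPM in siUsf2 1 and 2 and 14.6 CPM in the library labelled siUsf2 3, against 18.8, 16.4 and 18.6 CPM in siControl 1 to 3. It lay below siControl in all 3 libraries labelled siUsf2, at a log2 fold change of -0.42 (adjusted p = 0.0752 by edgeR, SE 0.15).

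Of 12 clock-controlled output genes, all tested, 2 rose, 1 fell and 9 did not pass, where 4.97% of all genes tested rose and 6.4% fell; the median log2 fold change was 0.01, against -0.01 over all genes. Pdk4, the kinase that shuts off pyruvate dehydrogenase, was at 36.5 and 39.0 CPM in siUsf2 1 and 2 and 31.9 CPM in the library labelled siUsf2 3, against 21.4, 25.9 and 25.8 CPM in siControl 1 to 3. Its log2 fold change was 0.62 (adjusted p = 6.65e-04 by edgeR, SE 0.12), and the call held in all 12 other settings of that comparison. Wee1, the mitotic inhibitor kinase whose promoter is a classical CLOCK and BMAL1 target in mouse liver, was at 41.0 CPM in both siUsf2 1 and 2 and 39.8 CPM in the library labelled siUsf2 3, against 34.1, 31.6 and 30.7 CPM in siControl 1 to 3. It rose by 0.34 on the log2 scale (adjusted p = 0.0409 by edgeR, SE 0.11). Its call held in 6 of the 12 settings and ended without siControl 1 (adjusted p = 0.0697), siControl 2 (0.114), siUsf2 1 (0.209) or siUsf2 2 (0.23), and with DESeq2 (0.0541) or no filter on low counts (0.061). Dtx4, an E3 ligase of the deltex family, was at 95.5 and 106 CPM in siUsf2 1 and 2 and 80.5 CPM in the library labelled siUsf2 3, against 140, 138 and 127 CPM in siControl 1 to 3, and fell (log2 fold change -0.43, adjusted p = 0.00182 by edgeR, SE 0.09). Its call ended without siUsf2 1 (adjusted p = 0.143).

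Per1 and Per2 also respond to cAMP, serum and glucocorticoids, so 9 acute response genes were read beside them. Of the 8 tested, 1 rose, 2 fell and 5 did not pass, beside 4.97% higher and 6.4% lower over all genes, and the median log2 fold change was 0.01. Nr4a1, an orphan nuclear receptor induced by cAMP, was at 42.8 and 30.5 CPM in siUsf2 1 and 2 and 43.6 CPM in the library labelled siUsf2 3, against 24.3, 22.1 and 23.8 CPM in siControl 1 to 3. Its log2 fold change was 0.63 (adjusted p = 0.00129 by edgeR, SE 0.13), which was lost without siUsf2 1 (adjusted p = 0.213). Egr1, a serum-induced zinc finger factor, and Sik1, a kinase that restrains CREB signalling, were lower, at -0.31 on the log2 scale (adjusted p = 0.0259 by edgeR, SE 0.09) and -0.32 (adjusted p = 0.0179 by edgeR, SE 0.09). The Egr1 call ended without siControl 1 (adjusted p = 0.105), siControl 2 (0.0957) or siUsf2 1 (0.504), and the Sik1 call without siControl 1 (0.105), siUsf2 1 (0.223) or siUsf2 2 (0.122).

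**Figure D4:**
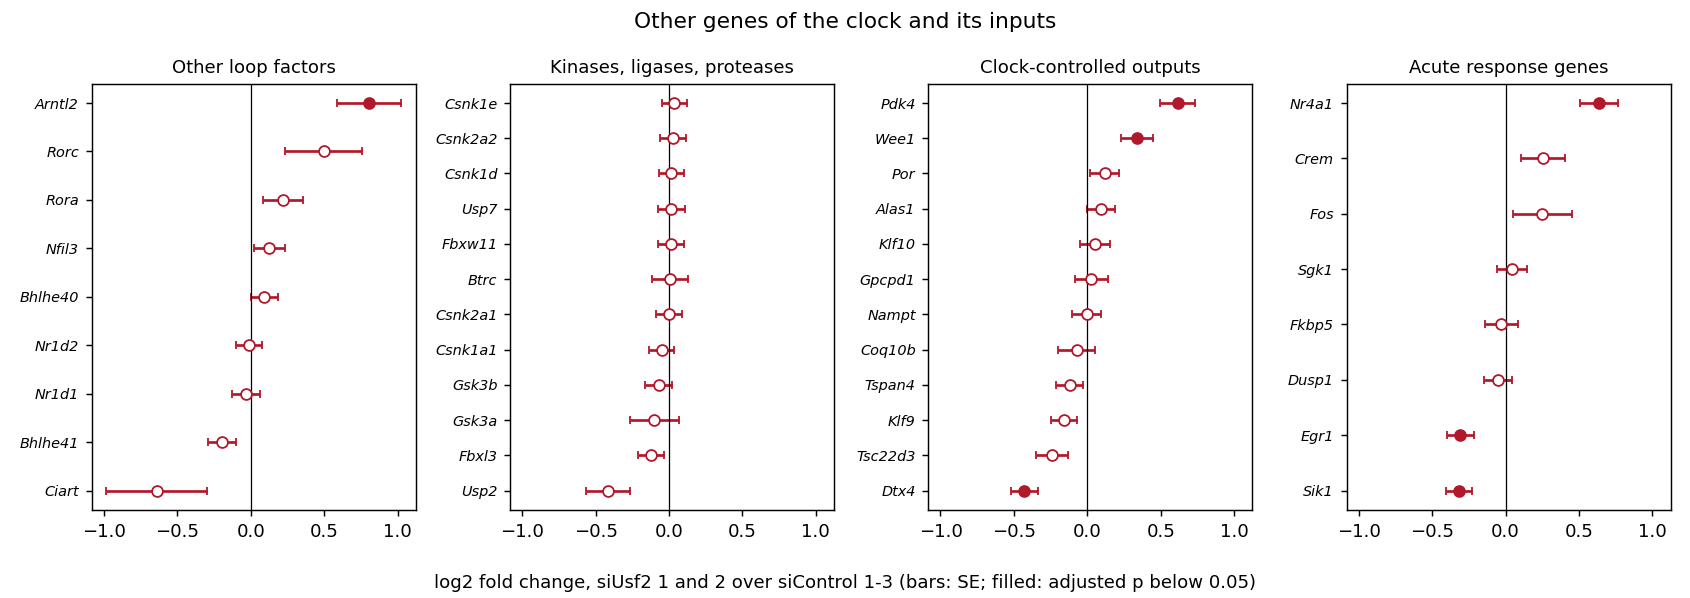
Log2 fold change of siUsf2 1 and 2 over siControl 1 to 3 (x axis; bars are the SE from edgeR) for the tested genes of 4 lists, from the highest to the lowest in each. Filled points passed an adjusted p of 0.05: Arntl2 at 0.81, Pdk4 at 0.62, Wee1 at 0.34 and Nr4a1 at 0.63 were higher, and Dtx4, Egr1 and Sik1 lower.

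The libraries differed in muscle differentiation as well, and its part in the clock gene values was not tested. Of 5 markers of differentiated muscle (Myog, Mymk, Acta1, Myh3 and Ckm), all 5 fell in the 5 libraries, and their summed level was 784 to 872 CPM in siUsf2 1 and 2 and 1541 CPM in the library labelled siUsf2 3, against 3572 to 3803 CPM in siControl. Of 5 myoblast markers, 4 fell (Myod1, Cdh15, Des and Chrna1) and Myf5 rose, and all 5 were above 3 counts in every library. Their sums were 1919 to 2056 CPM in siUsf2 1 and 2, 2560 CPM in the library labelled siUsf2 3 and 2488 to 2957 CPM in siControl. Sums of adipocyte markers were 0.201 to 0.443 CPM in siUsf2 1 and 2, 0.293 CPM in the library labelled siUsf2 3 and 0 to 0.135 CPM in siControl, with Lep at 0 throughout. Macrophage sums were 2.14 to 2.85 CPM in siUsf2 1 and 2, 0 in the library labelled siUsf2 3 and 0.960 to 3.37 CPM in siControl, with Adgre1 at 0 throughout. Endothelial sums were 0.201 to 0.632 CPM in siUsf2 1 and 2, 2.05 CPM in the library labelled siUsf2 3 and 0.0676 to 0.565 CPM in siControl. Of 4 fibroblast markers, which C2C12 cells also express, 1 rose and none fell, with sums of 491 to 496 CPM in siUsf2 1 and 2, 1054 CPM in the library labelled siUsf2 3 and 414 to 432 CPM in siControl. Fewer cells in a given state and less RNA per cell cannot be told apart in these bulk libraries.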

How the data were processed

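RNA was extracted with TRIzol, per the labels' protocols. The authors deposited raw whole-number read counts by Ensembl identifier and library. The submitters' processing notes name mm10, FastQC, Trimmomatic, HISAT2, featureCounts and DESeq2, with roles, versions, strand setting and annotation not stated there. Another deposited table, of those counts scaled to a fixed total, was not used.

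Symbols, coordinates and exon lengths came from GENCODE M21 (GRCm38), which matched 52133 of 55414 identifiers, including all 10 clock genes. With minimap2 2.31, no transcript of another gene aligned to theirs at 90% identity over 50% of its length and 150 bases. Total counts were 3414565 to 17715250, so a count of 0 allows 0.169 to 0.879 CPM (3 counts); intervals cover counting error only.

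edgeR 4.0.16 in R 4.3.3 (filterByExpr, TMM, robust glmQLFit, two-sided glmQLFTest) was fitted to all genes of all 6 libraries and of the 5 without the library labelled siUsf2 3. The SE is the fold change over the square root of F. DESeq2 1.42.0, limma-voom (limma 3.58.1), other scalings and filters, a replicate block and each library left out were tried. The test was checked on counts simulated with the common dispersion of each comparison. With 6 libraries it recovered 0% of 1.5-fold, 4.48% of 2-fold and 57.6% of 4-fold changes. With 5 libraries it recovered 76.1%, 100% and 100%. The named genes are the 10 clock genes, Usf2 and its paralog Usf1, and up to 4 called genes of each list by p, plus any between 0.05 and 0.1. Nr1d1, Nr1d2, Npas2, Rorb and the markers were named as context. The clock genes, lists and the 5-library comparison were chosen with earlier results of these data known.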

Additional observations from a re-analysis of the deposited data

How the results depend on the processing

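In the 5-library comparison, Hlf stayed called under all 12 alternatives (log2 fold change 0.98 to 1.36) and Per3 under 11. Of 120 combinations of clock gene and alternative, 111 kept direction and side of the threshold. The count of higher clock genes, 2, ranged from 1 (without siUsf2 1) to 3 on leaving out 1 library. In the 6-library comparison it was 0, or 1 by DESeq2 (Hlf, adjusted p = 0.00668), and 0 to 2 on leaving out 1 library. There 120 of 130 combinations kept direction and call. Signs turned for small, uncalled values on leaving out 1 library: Per2 (5 libraries, -0.04 to 0.15; 6 libraries, -0.06 to 0.09), Dbp (5 libraries, -0.09 to 0.15), Clock (6 libraries, -0.08 to 0.18) and Cry2 (6 libraries, -0.22 to 0.10). Deviations of same-numbered libraries from their group means correlated at -0.101, -0.014 and -0.102 with 6 libraries and at 0.0118 and 0.00258 with 5. Deviations within a group depend on each other, so these values cannot show whether replicate numbers pair the libraries. With a replicate block in the 5 libraries, Clock was called (0.28, adjusted p = 0.0055), Dbp turned to -0.10, and 1719 genes rose and 2270 fell. In that block siControl 3 has no same-numbered siUsf2 library. Leaving siControl 3 out, with no block, gave Clock at 0.29 and Dbp at -0.09, with 1596 genes higher and 1964 lower. With the block in all 6, 0 genes were called.

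Over all genes, 855 rose and 1102 fell with 5 libraries, 398 and 540 at an adjusted p below 0.01, and 349 to 1596 and 519 to 1964 on leaving out 1 library. Upper-quartile scaling gave 1124 and 900. With 6 libraries 0 rose and 7 fell by edgeR (1753 at an unadjusted p below 0.05). There 296 rose and 410 fell by DESeq2, 19 and 87 by limma-voom, and 12 and 104 with no filter; 4 fell with RLE and 0 with upper-quartile scaling or at an adjusted p below 0.01. Leaving out 1 library gave 0 to 855 higher and 0 to 1102 lower, the upper ends without the library labelled siUsf2 3. Causes were not tested. The library labelled siUsf2 3 held 69 to 689 reads for each of the 10 genes, which sets its counting intervals. Its counts differed from those of siUsf2 1 and 2 by far more than counting error (chi-square per degree of freedom 103 with each, against 4.38 between siUsf2 1 and siUsf2 2), and edgeR's coefficient of variation was 40.0% with 6 libraries and 9.25% with 5.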

Other observations

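Ratios of reads within a library do not depend on scaling, and Tef was chosen as the denominator after its values were seen. Per 100 reads of Tef there were 24.4 and 22.3 reads of Per3 in siUsf2 1 and 2, with 20.8 in the library labelled siUsf2 3, against 14.97, 17.0 and 17.2 in siControl 1 to 3. For Arntl they were 8.85 and 8.50 in siUsf2 1 and 2, with 10.0 in the library labelled siUsf2 3, against 5.79, 6.72 and 6.57 in siControl 1 to 3. Every library labelled siUsf2 was above siControl for both genes. Tef itself was lower in CPM in each of them than in any siControl library, though barely in siUsf2 1. A lower denominator raises these ratios. For the library labelled siUsf2 3, the log2 of CPM over the siControl mean was -0.25 for Tef, 0.10 for Per3 and 0.41 for Arntl. The Per3 gap in that library therefore came mostly from Tef.

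Ratios to other members overlapped in at least 1 library. Reads of Per3 per 100 reads of Per2 were 106 and 112 in siUsf2 1 and 2, with 87.7 in the library labelled siUsf2 3, against 76.6, 99.1 and 81.5 in siControl 1 to 3. There siUsf2 1 and 2 lay above siControl and the library labelled siUsf2 3 lay inside its range. Reads of Arntl per 100 reads of Clock were 16.7 and 14.9 in siUsf2 1 and 2, with 21.8 in the library labelled siUsf2 3, against 13.9, 16.1 and 12.02 in siControl 1 to 3, so siUsf2 2 lay inside the siControl range. Reads of Cry1 per 100 reads of Cry2 were 91.9 and 107 in siUsf2 1 and 2, with 80.7 in the library labelled siUsf2 3, against 90.1, 104 and 102 in siControl 1 to 3.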
